A study of Homo sapiens with 8 samples.

Results

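The 54 genes described here encode the proteins that license replication origins, open and copy the DNA, and supply nucleotides and histones for S phase, together with cyclin E and the E2F factors that switch many of them on. They were taken as a list of gene symbols that was chosen with earlier results of these data known. All 54 were found among the 17309 genes of the table. Their levels were measured by RNA-seq in SW480 and DLD-1, which are human colorectal cancer cell lines whose genotype is labelled WT. According to the paper, cells were grown in recommended medium with fetal bovine serum, and no medium is named for either line. Cells of each line were infected with a lentivirus that carried a control short hairpin (shControl) or a hairpin against NAT10 (shNAT10), the acetyltransferase that writes N4-acetylcytidine on RNA. Each of the 4 groups had 2 libraries labelled as biological replicates, 8 in all, and p-values cover the spread between these libraries. The study asked how NAT10 loss changed transcripts in the 2 lines, and each line stands for 1 model, so a difference between the lines cannot be told apart from any other feature in which they differ. Which of the NAT10 hairpins was sequenced is not given in the labels.

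Replication is prepared in G1, when the origin recognition complex, CDC6 and CDT1 load the MCM2-7 helicase as a double ring on DNA, and geminin blocks further loading once S phase has begun. The kinase CDC7, MCM10, CDC45 and the GINS complex then turn the ring into a moving helicase, primase and the DNA polymerases copy the strands behind it with the PCNA clamp, and ribonucleotide reductase, thymidylate synthase and thymidine kinase provide the building blocks. Many of these genes are known E2F targets that rise together as cells pass from G1 into S phase, which is why the group is read as a mark of proliferation in colorectal tumours.

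Promoter sequences were searched for the letters of the E2F consensus (TTTCCCGC, TTTCGCGC, TTTGGCGC or TTTGCCGC, on either strand) in RefSeq promoters of GRCh38.p14, from 250 bases before to 50 bases after a gene's start. Of the 54 genes, 46 had a promoter in that collection, and 25 of the 46 (54.3%) held at least one such match. DSCC1, POLD3, GINS4, CCNE2, MCM5, RPA2, RPA3 and MCM4 were not searched. The share was 3.99% over all 27305 genes with a promoter, 3.31% over all 35116 promoters and 6.53% over the 11037 tested genes with one. Among 24 genes of G2 and mitosis, 19 had a promoter and 2 of these (10.5%) held the letters. Among 31 further replication genes outside the 54, 26 had a promoter and 6 of these (23.1%) held them. The letters CCAAT were found in 28 of the 46 genes (60.9%) against 39.7% of all genes, 42.8% of tested genes and 17 of the 19 mitotic genes (89.5%). TTTGAA or TTCGAA, the core of the CHR element of mitotic genes, was found in 2 of the 46 (4.35%), against 19.5% of all genes and 14 of the 19 mitotic genes (73.7%). Of the 26 further replication genes, 14 (53.8%) held CCAAT and 5 (19.2%) held the CHR core. The 4 E2F strings can overlap on the 2 strands, and a match is a run of letters and not a mapped site. The following windows are shown because they place the same letters in genes that were much lower in SW480 (CLSPN, E2F2, GINS2, POLE2, LIG1), in PCNA, and in genes that were not lower or were higher (MCM7, RFC3, POLA1). Each is written 5′ to 3′ along the gene's strand with the matched letters in capitals.
CLSPN, chr1:35769965-35769994, minus strand: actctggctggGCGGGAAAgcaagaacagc
E2F2, chr1:23531257-23531286, minus strand: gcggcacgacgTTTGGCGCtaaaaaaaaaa
GINS2, chr16:85688967-85688996, minus strand: ctctcgccgtgGCGGGAAAacggcggccgc
POLE2, chr14:49688201-49688230, minus strand: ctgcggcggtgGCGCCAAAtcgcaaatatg
LIG1, chr19:48170440-48170469, minus strand: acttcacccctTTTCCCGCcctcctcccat
PCNA, chr20:5126663-5126692, minus strand: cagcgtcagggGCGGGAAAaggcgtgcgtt
MCM7, chr7:100101388-100101417, minus strand: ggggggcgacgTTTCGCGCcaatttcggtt
RFC3, chr13:33818083-33818112, plus strand: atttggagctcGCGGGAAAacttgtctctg
POLA1, chrX:24693770-24693799, plus strand: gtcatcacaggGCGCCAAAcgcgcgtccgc
The first letters of the MCM7, CLSPN and POLE2 matches lay 9, 5 and 5 bases before the start, and that of POLA1 lay 137 bases before it. The CLSPN and POLE2 matches therefore run across the start. MCM7 held a further match, not shown, with its first letter 187 bases before the start. The 25 genes with a match and the 21 without one had median differences between the lines of -0.72 and -0.71 on the log2 scale in shControl cells.

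Read depth was even, with 15147805 to 17271336 estimated counts per library, and values below are CPM, counts scaled to a common library size by TMM normalization, unless a level per length is named. NAT10 was at 121 and 121 CPM in DLD-1 shControl, 59.0 and 54.4 CPM in DLD-1 shNAT10, 122 and 122 CPM in SW480 shControl and 23.6 and 27.9 CPM in SW480 shNAT10. NAT10 fell in SW480 (log2 fold change -2.25, SE 0.087, adjusted p = 3.74e-09) and in DLD-1 (log2 fold change -1.09, SE 0.081, adjusted p = 2.73e-05), and the fall was larger in SW480 (difference of log2 fold changes -1.16, adjusted p = 0.0015), all by edgeR's quasi-likelihood test with Benjamini-Hochberg adjustment over 13619 genes. The epithelial genes EPCAM, CDH1, KRT8, KRT18 and CDX2 were detected in every library. Of 9 epithelial markers tested, 8 were lower and 1 was higher in SW480 shControl, KRT20 was at 17.5 to 20.6 CPM in DLD-1 and at 0.059 to 0.23 CPM in SW480, and GPA33 was near 0 in both. Of the 12 found markers of T cells, macrophages, fibroblasts, endothelium and other cells, CD3E, PECAM1 and CDH5 were at or below 0.2 CPM, and CD68, at 17.3 to 30.7 CPM, was the highest. Only 4 of these markers, COL1A1, VWF, PDGFRB and CD68, were tested, and all 4 were higher in SW480 shControl (median log2 fold change 1.02), with COL1A1, VWF and PDGFRB at 0.12 to 3.04 CPM over the 8 libraries. The part of these markers in the results below was not tested. Of all 13619 tested genes, 35.6% were lower and 38.1% were higher in SW480 shControl. The 2 SW480 shNAT10 libraries stood further apart than any other pair, with a chi-square of 9.77 per gene against 3.32 to 4.59.

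Next, the 2 lines were compared. In shControl cells, 43 of the 54 genes were lower in SW480 than in DLD-1 and 2 were higher at an adjusted p under 0.05, where 35.6% of all 13619 tested genes were lower and 38.1% were higher. The median log2 fold change of the 54 genes was -0.72, against 0.011 for all genes. In shNAT10 cells 44 were lower and 4 were higher, beside 36.3% and 38.2% of all genes, and the median was -0.75. There were 42 genes lower in both comparisons (31.9% of all genes) and 2 higher in both (34.5%). Without DLD-1 shControl replicate 1 or SW480 shControl replicate 1, 1 gene was higher in shControl cells in place of 2, and without SW480 shControl replicate 2 it was 3. The 4 SW480 libraries all lay below the 4 DLD-1 libraries for 44 genes (35.5% of all genes) and all above for 4 (37.9%). A level over 1.5-fold lower in shControl cells was called for 32 genes (20.4% of all genes). In RNA from whole cultures, fewer cells in S phase and less RNA per cell cannot be told apart.

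**Figure D1:**
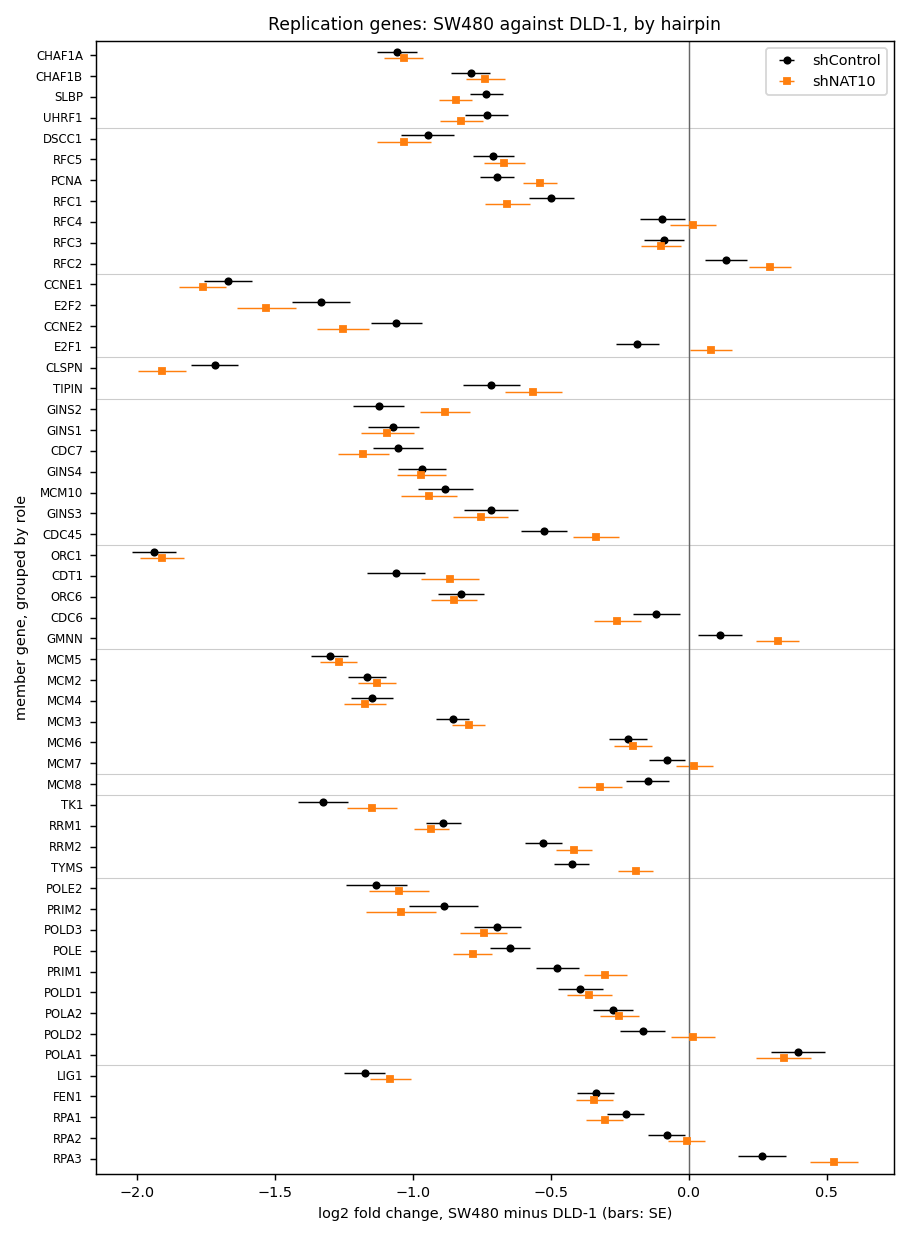
Log2 fold change of SW480 minus DLD-1 for the 54 genes, grouped by role, in shControl cells (black circles) and shNAT10 cells (orange squares), with 2 libraries per group. Bars show the SE from the fit of all 8 libraries, which share their spread. Most points lie left of 0, from -1.94 for ORC1 to 0.53 for RPA3, and the 2 hairpins give similar positions.

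Among the loading factors, ORC1, the regulated large subunit of the origin recognition complex, had the largest difference of all. It was at 86.3 and 93.3 CPM in the DLD-1 shControl libraries and 23.7 and 23.1 CPM in the SW480 shControl libraries, so the lines did not overlap (log2 fold change -1.94, SE 0.080, adjusted p = 1.97e-11), a 3.83-fold lower level in SW480. ORC6 and the loader CDT1 were also lower (log2 fold changes -0.83 and -1.06). CDC6, which loads MCM2-7 together with CDT1, was at 109 and 114 CPM in the DLD-1 shControl libraries and 99.3 and 106 CPM in the SW480 shControl libraries and did not pass the test in shControl cells (adjusted p = 0.221), although it did in shNAT10 cells (log2 fold change -0.26, SE 0.085, adjusted p = 0.0126). That CDC6 call was lost without DLD-1 shNAT10 replicate 2 (log2 fold change -0.18, adjusted p = 0.147) or SW480 shNAT10 replicate 1 (log2 fold change -0.15, adjusted p = 0.118). GMNN, the geminin gene whose product inhibits CDT1, was at 35.5 and 35.3 CPM in DLD-1 shControl, 37.6 and 35.3 CPM in DLD-1 shNAT10, 38.4 and 38.2 CPM in SW480 shControl and 43.5 and 47.6 CPM in SW480 shNAT10. Its difference did not pass in shControl cells (log2 fold change 0.11, SE 0.079, adjusted p = 0.213) and passed in shNAT10 cells (log2 fold change 0.32, SE 0.079, adjusted p = 0.00189), a call that a correction for transcript length ended (log2 fold change 0.14, adjusted p = 0.162). In shControl cells limma-trend on FPKM called GMNN higher, with a log2 fold change of 0.16.

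Of the 6 subunits of the MCM2-7 helicase, 5 were lower in SW480, but by unequal amounts. MCM5 was at 214 and 218 CPM in the DLD-1 shControl libraries and 90.0 and 85.3 CPM in the SW480 shControl libraries (log2 fold change -1.30, SE 0.067, adjusted p = 2.31e-10). MCM2 was at 287 and 309 CPM in the DLD-1 shControl libraries and 135 and 130.4 CPM in the SW480 shControl libraries (log2 fold change -1.17, SE 0.068, adjusted p = 1.06e-09). MCM4 was at 427 and 465 CPM in the DLD-1 shControl libraries and 202 and 199.9 CPM in the SW480 shControl libraries (log2 fold change -1.15, SE 0.076, adjusted p = 4.05e-09). In each of these 3 subunits the DLD-1 values were over 2-fold those of SW480. MCM3 was lower by 1.81-fold and MCM6 by 1.16-fold (log2 fold changes -0.86 and -0.22). The MCM6 call was lost without DLD-1 shControl replicate 2 (log2 fold change -0.18, adjusted p = 0.0839) or SW480 shControl replicate 2 (log2 fold change -0.20, adjusted p = 0.0756). MCM7 was at 454 and 444 CPM in the DLD-1 shControl libraries and 438 and 412 CPM in the SW480 shControl libraries and did not differ past the threshold (log2 fold change -0.08, SE 0.066, adjusted p = 0.293, 95% confidence interval -0.22 to 0.06).

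Levels per length, in FPKM, which divides counts by transcript length and library size, placed MCM7 first among the 6 subunits in all 7 libraries with complete values. MCM7 was at 205 and 202 FPKM in the DLD-1 shControl libraries and at 199 and 189 FPKM in the SW480 shControl libraries. MCM5 was at 70.8 and 72.8 FPKM and at 30.1 and 29.0 FPKM in the same libraries. The ratio of the highest to the lowest subunit was 2.91 to 3.44 in the 4 DLD-1 libraries, with MCM6 lowest, and 6.54 to 7.77 in 3 SW480 libraries, with MCM5 lowest. The gene spans of MCM7 and AP4M1 overlap by 604 bases, and the strand of the counted reads is not stated.

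**Figure D2:**
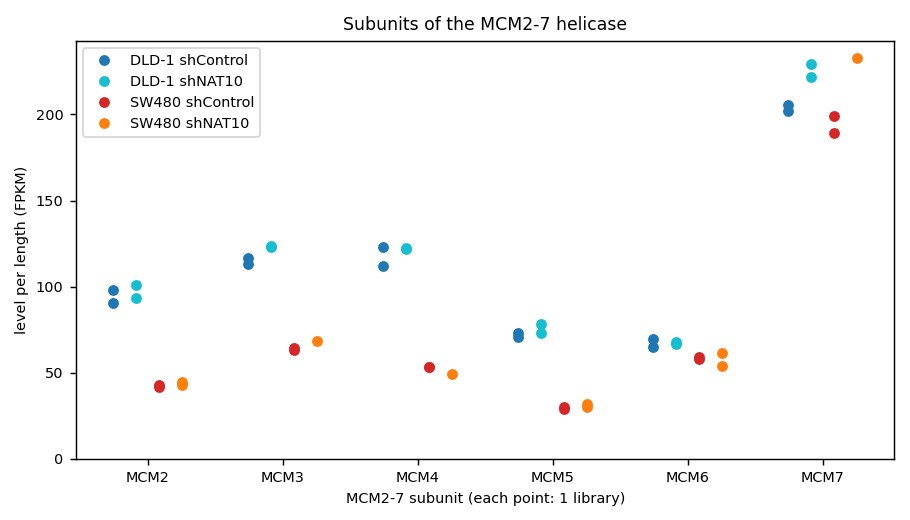
Level per length (FPKM) of the 6 MCM2-7 subunits, with 1 point per library and 1 colour per group. MCM2, MCM3, MCM4 and MCM5 lie lower in SW480 than in DLD-1, while MCM7 lies between 189 and 233 FPKM in both lines. SW480 shNAT10 replicate 2 has no point for MCM3, MCM4 and MCM7, for which its values were incomplete.

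All 7 listed genes of helicase activation were lower in SW480. GINS2, a subunit of the 4-part GINS ring, was at 62.3 and 61.7 CPM in the DLD-1 shControl libraries and 29.1 and 27.7 CPM in the SW480 shControl libraries (log2 fold change -1.12, SE 0.093, adjusted p = 4.99e-08). GINS1 was at 43.8 and 47.7 CPM in the DLD-1 shControl libraries and 19.8 and 23.8 CPM in the SW480 shControl libraries (log2 fold change -1.07, SE 0.093, adjusted p = 9.21e-08). GINS4 and GINS3 had log2 fold changes of -0.97 and -0.72. CDC7, the catalytic subunit of the kinase that phosphorylates MCM2-7, was lower by 2.08-fold and MCM10 by 1.84-fold. CDC45, which joins GINS and MCM2-7 in the moving helicase, had the smallest difference of the group (log2 fold change -0.53) and was at 68.2 and 63.6 CPM in the DLD-1 shControl libraries and 49.1 and 42.4 CPM in the SW480 shControl libraries. It had the highest level per length in its role, 42.4 and 39.6 FPKM in DLD-1 shControl. MCM8, a relative of the MCM2-7 subunits that acts in recombination, did not pass in shControl cells (log2 fold change -0.15, SE 0.079, adjusted p = 0.102) but did when SW480 shNAT10 replicate 1 or 2 was left out (adjusted p = 0.0468 and 0.0490 by edgeR), and it was lower in shNAT10 cells (log2 fold change -0.32, SE 0.080, adjusted p = 0.00219).

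Clamp and clamp loader genes were split. PCNA, the sliding clamp, was at 429 and 429 CPM in the DLD-1 shControl libraries and 273 and 257 CPM in the SW480 shControl libraries (log2 fold change -0.70, SE 0.061, adjusted p = 1.08e-07), and it had the highest level per length of all 54 genes, 425 and 424 FPKM in DLD-1 shControl. RFC1, RFC5 and DSCC1, which belong to loaders that open the clamp, were lower (log2 fold changes -0.50, -0.71 and -0.95). RFC3 and RFC4 did not pass the test in either comparison, with log2 fold changes of -0.09 and -0.10 in shControl cells and 95% confidence intervals of -0.25 to 0.07 and -0.27 to 0.08. In shNAT10 cells RFC3 was called lower with limma-trend on FPKM (log2 fold change -0.20, adjusted p = 0.0276) and with the length correction (log2 fold change -0.16, adjusted p = 0.0425). RFC2 was higher in SW480 in shNAT10 cells (log2 fold change 0.29, SE 0.077, adjusted p = 0.00307) and did not pass in shControl cells (log2 fold change 0.14, SE 0.077, adjusted p = 0.125), though it did without SW480 shControl replicate 2 (log2 fold change 0.22, adjusted p = 0.0487). The difference between these 2 values did not pass (adjusted p = 0.648 by edgeR). RFC1 to RFC5 form 1 complex, and the ratio of its highest to its lowest subunit per length was 1.66 to 1.81 in DLD-1 and 2.18 to 3.29 in 3 SW480 libraries.

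Of the 9 polymerase and primase genes, 7 were lower in SW480 and 1 was higher. POLE2, the second subunit of the leading-strand polymerase, was at 22.6 and 22.0 CPM in the DLD-1 shControl libraries and 10.8 and 9.54 CPM in the SW480 shControl libraries (log2 fold change -1.13, SE 0.110, adjusted p = 2.97e-07). POLE, its catalytic subunit, had a log2 fold change of -0.65, and PRIM2, the large primase subunit, one of -0.89 with the largest SE of the group (0.126). POLD2, a subunit of the lagging-strand polymerase with the highest level per length in its role (177 and 162 FPKM in DLD-1 shControl), did not pass (log2 fold change -0.17, SE 0.081, adjusted p = 0.0752), although it was lower when SW480 shNAT10 replicate 1 or 2, which take part in the shared spread, was left out (adjusted p = 0.0255 and 0.0223 by edgeR) and with the length correction (log2 fold change -0.19, adjusted p = 0.00424). POLA1, the catalytic subunit of polymerase alpha, was at 35.5 and 40.1 CPM in DLD-1 shControl, 36.8 and 40.3 CPM in DLD-1 shNAT10, 49.4 and 50.1 CPM in SW480 shControl and 44.1 and 53.6 CPM in SW480 shNAT10. POLA1 was higher in SW480 in both comparisons (log2 fold change 0.40, SE 0.098, adjusted p = 0.00214 in shControl cells and log2 fold change 0.34, SE 0.099, adjusted p = 0.00577 in shNAT10 cells), whereas its partner POLA2 was lower (log2 fold change -0.27 in shControl cells). In shNAT10 cells the POLA1 call was lost without DLD-1 shNAT10 replicate 1 (log2 fold change 0.28, adjusted p = 0.0736), without SW480 shNAT10 replicate 2 (log2 fold change 0.19, adjusted p = 0.076) and with limma-trend on FPKM (log2 fold change 0.13, adjusted p = 0.292).

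In the single-strand binding and flap joining group, LIG1, the ligase that seals Okazaki fragments, was at 127 and 132 CPM in the DLD-1 shControl libraries and 60.4 and 54.3 CPM in the SW480 shControl libraries (log2 fold change -1.17, SE 0.075, adjusted p = 2.88e-09). FEN1, the nuclease that trims their flaps, was lower by 1.26-fold. The 3 subunits of replication protein A, which coats single-stranded DNA, differed in direction. RPA1 was lower (log2 fold change -0.23, SE 0.067, adjusted p = 0.00701), RPA2 did not pass (log2 fold change -0.08, 95% confidence interval -0.22 to 0.06), and RPA3 was higher (log2 fold change 0.27, SE 0.086, adjusted p = 0.0122). The gene spans of RPA3 and UMAD1 overlap by 77856 bases, and whether they share reads was not tested. Its shControl call was lost without DLD-1 shControl replicate 1 (log2 fold change 0.25, adjusted p = 0.064) or SW480 shControl replicate 1 (log2 fold change 0.19, adjusted p = 0.153).

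All 4 genes of nucleotide supply were lower in SW480. TK1, the thymidine kinase of the salvage route, was at 244 and 229.7 CPM in the DLD-1 shControl libraries and 100.1 and 89.0 CPM in the SW480 shControl libraries (log2 fold change -1.33, SE 0.091, adjusted p = 6.59e-09). RRM1 and RRM2, the large and small subunits of ribonucleotide reductase, were lower by 1.85-fold and 1.44-fold. Per length, the ratio of the higher to the lower subunit was 1.01 to 1.05 in the 4 DLD-1 libraries, and RRM2 was 1.24 to 1.49 times RRM1 in 3 SW480 libraries. TYMS, which makes thymidylate and had the highest mean level per length in this role, was at 276 and 283 CPM in DLD-1 shControl, 273 and 276 CPM in DLD-1 shNAT10, 218 and 199 CPM in SW480 shControl and 239.9 and 240.4 CPM in SW480 shNAT10. It was lower in both comparisons (log2 fold change -0.42, SE 0.063, adjusted p = 2.63e-05 in shControl cells), and its gene span overlaps that of ENOSF1 by 10593 bases. In shNAT10 cells its difference (log2 fold change -0.19, SE 0.063, adjusted p = 0.013) did not pass without DLD-1 shNAT10 replicate 2 (log2 fold change -0.19, adjusted p = 0.0615).

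The 4 genes of chromatin and histone supply were all lower in SW480. CHAF1A and CHAF1B, 2 subunits of the CAF-1 histone chaperone, had log2 fold changes of -1.06 and -0.79. SLBP, which binds the end of histone mRNAs, had one of -0.73, and UHRF1, which maintains DNA methylation behind the fork, one of -0.73. In fork protection, CLSPN, the claspin gene, was at 77.1 and 84.1 CPM in the DLD-1 shControl libraries and 24.6 and 24.4 CPM in the SW480 shControl libraries (log2 fold change -1.72, SE 0.085, adjusted p = 1.51e-10). TIPIN, its partner at the fork and the higher of the pair per length, was lower by 1.64-fold.

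All 4 cyclin E and E2F genes were lower in SW480 in shControl cells. CCNE1, one of the cyclins that drive CDK2 at the entry to S phase, was at 43.6 and 42.3 CPM in the DLD-1 shControl libraries and 13.3 and 13.6 CPM in the SW480 shControl libraries (log2 fold change -1.67, SE 0.086, adjusted p = 2.52e-10). CCNE2 was lower by 2.09-fold. E2F2 was at 35.6 and 36.5 CPM in the DLD-1 shControl libraries and 13.6 and 15.05 CPM in the SW480 shControl libraries (log2 fold change -1.33, SE 0.105, adjusted p = 3e-08). E2F1 was at 52.8 and 48.6 CPM in DLD-1 shControl, 51.9 and 49.6 CPM in DLD-1 shNAT10, 45.8 and 43.2 CPM in SW480 shControl and 54.8 and 52.5 CPM in SW480 shNAT10. Its difference passed narrowly in shControl cells (log2 fold change -0.19, SE 0.078, adjusted p = 0.041) and did not pass in shNAT10 cells (log2 fold change 0.08, SE 0.077, adjusted p = 0.362). The shControl call of E2F1 was lost with DESeq2, with upper-quartile scaling, and without DLD-1 shControl replicate 1 or either SW480 shControl library, with adjusted p from 0.0659 to 0.267.

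**Figure D3:**
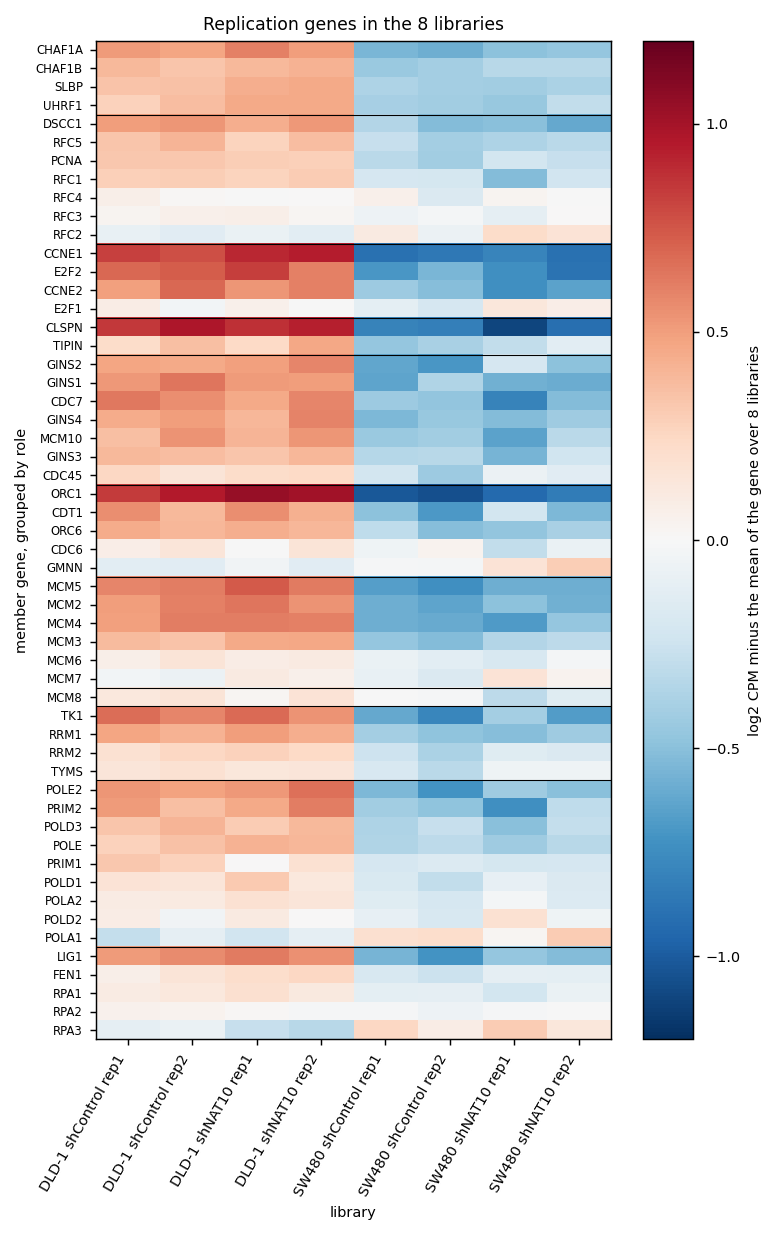
Log2 CPM of each of the 54 genes (rows, grouped by role) in each of the 8 libraries (columns), after subtraction of the gene's mean over the 8 libraries. The 4 DLD-1 libraries have median values of 0.33 to 0.40 and the 4 SW480 libraries of -0.41 to -0.30, and the shControl and shNAT10 columns of a line look alike.

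Other lists were counted in the same comparison, in which 35.6% of all genes were lower and 38.1% were higher in SW480 shControl. Of 31 further replication genes, 21 were lower and 6 were higher in SW480 shControl (median log2 fold change -0.38). The lower ones included, with their log2 fold changes, CHTF18 (-1.55), a clamp loader subunit, and the helicases RECQL4 (-1.40) and DNA2 (-1.40). DBF4 went the other way, at 96.4 and 94.2 CPM in DLD-1 shControl and 173 and 174 CPM in SW480 shControl. Of 30 other nucleotide genes, 13 were lower and 4 higher. SAMHD1, which degrades deoxynucleotides, had a log2 fold change of -1.75, and PRPS1, an early enzyme of nucleotide synthesis, one of 2.12. Of 31 other regulators of G1 and S phase, 14 were lower and 12 higher. CDKN1A, a CDK inhibitor, was at 24.1 and 20.2 CPM in DLD-1 shControl, 20.3 and 17.1 CPM in DLD-1 shNAT10, 179 and 175 CPM in SW480 shControl and 177 and 170.2 CPM in SW480 shNAT10. CDKN2A, the p16 gene, was at or below 0.2 CPM in DLD-1 and at 34.9 to 52.4 CPM in SW480. The cyclin genes CCND2 and CCND1 lay higher in SW480 as well. CCND2 was at 0 and 0.30 CPM in DLD-1 shControl and 22.7 and 22.3 CPM in SW480 shControl. CCND1 was at 486 and 536 CPM in DLD-1 shControl and 888 and 924 CPM in SW480 shControl. Of 24 genes of G2 and mitosis, 8 were lower and 6 higher (median log2 fold change -0.11), with AURKB (0.66) and TPX2 (0.64) higher and KIF11 (-0.61) lower.

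Thereafter, the effect of NAT10 knockdown was examined within each line. No replication gene passed the adjusted threshold in edgeR's quasi-likelihood test in SW480, where 0.778% of all genes rose and 0.903% fell. At an unadjusted p under 0.05 there were 12 genes, 10 higher and 2 lower, or 22.2% of the 54 against 19.3% of all genes in either direction. In DLD-1 none passed either, beside 0% of all genes higher and 0.0147% lower, and 2 were lower at an unadjusted p under 0.05 (3.70% of the 54 against 5.96% of all genes). Over both lines none passed (0.455% of all genes higher and 0.565% lower), with 9 higher and 1 lower at the unadjusted level (18.5% against 14.5% of all genes). The difference in response between the lines passed for none (0% of all genes higher and 0.00734% lower), with 2 at the unadjusted level (3.70% against 9.38% of all genes). The median log2 fold change of the 54 genes was 0.037 in SW480 and 0.023 in DLD-1. In the fit of all 8 libraries, all 54 of the 95% confidence intervals lay inside a 1.5-fold change in each line. That fit shares its spread over the groups, and intervals were not computed for other fits. Without SW480 shNAT10 replicate 2, the SW480 log2 fold change of GINS2 was 0.46, where the highest of the 54 genes was 0.32 with all libraries.

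The SW480 counts depended on the libraries and the tool used. Without SW480 shNAT10 replicate 2, 6 genes were called higher (GINS2, CDT1, POLD2, E2F1, MCM7 and TK1) and 4 lower (CDC7, RFC1, MCM8 and CDC6) in SW480, while calls over all genes went from 106 higher and 123 lower to 1031 and 1131 (7.46% and 8.18%). Over both lines 3 genes were then called higher and 2 lower, beside 4.0% and 4.37% of all genes. DESeq2 called 1 gene in SW480 and 1 over both lines, and both were MCM7, beside 1.23% and 0.815% of all genes called higher. With SW480 fitted alone none of the 54 was called, beside 0.122% of all genes higher and 0.0988% lower. Limits of a 1.2-fold change and an unadjusted p under 0.05 in SW480 were met by 2 genes, both higher (3.70%), beside 4.10% of all genes higher and 4.98% lower.

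MCM7 had the lowest p of the 54 genes in SW480 and over both lines. Its 8 values were 454 and 444 CPM in DLD-1 shControl, 501 and 484 CPM in DLD-1 shNAT10, 438 and 412 CPM in SW480 shControl and 521 and 478 CPM in SW480 shNAT10, so that both shNAT10 libraries lay above both shControl libraries in each line. The same held for MCM3, MCM5, ORC1, FEN1, CHAF1B and GINS2, while PRIM1 lay below in each line. The share of all genes was not counted, so these patterns have no background to be read against. The change of MCM7 was small (log2 fold change 0.23, SE 0.066, unadjusted p = 0.00333, adjusted p = 0.0911 in SW480 and log2 fold change 0.13, SE 0.066, unadjusted p = 0.0621, adjusted p = 0.862 in DLD-1). E2F1 followed in SW480 (log2 fold change 0.27, SE 0.077, unadjusted p = 0.00366, adjusted p = 0.0935). GINS2 came next, with 29.1 and 27.7 CPM in SW480 shControl and 39.0 and 31.9 CPM in SW480 shNAT10 (log2 fold change 0.32, SE 0.096, unadjusted p = 0.0052, adjusted p = 0.109). The log2 ratio of its 2 SW480 shNAT10 replicates was 0.29. Over both lines MCM3 followed MCM7 and GINS2 (log2 fold change 0.13, SE 0.042, unadjusted p = 0.00922, adjusted p = 0.186).

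In DLD-1, PRIM1, the catalytic primase subunit, was at 62.0 and 60.1 CPM in DLD-1 shControl, 49.8 and 56.3 CPM in DLD-1 shNAT10, 43.2 and 44.4 CPM in SW480 shControl and 42.9 and 43.1 CPM in SW480 shNAT10. Its DLD-1 groups did not overlap, but the difference did not pass (log2 fold change -0.20, SE 0.077, unadjusted p = 0.0195, adjusted p = 0.784). RPA3 was at 33.3 and 34.0 CPM in DLD-1 shControl, 29.7 and 28.6 CPM in DLD-1 shNAT10, 42.7 and 38.3 CPM in SW480 shControl and 44.3 and 39.5 CPM in SW480 shNAT10, and its DLD-1 groups did not overlap either (log2 fold change -0.21, SE 0.089, unadjusted p = 0.0345, adjusted p = 0.824). The share of all genes whose DLD-1 groups did not overlap was not counted. For the difference between the lines, TYMS (log2 fold change 0.23, SE 0.089, unadjusted p = 0.0206, adjusted p = 0.489), E2F1 (log2 fold change 0.27, SE 0.109, unadjusted p = 0.0284, adjusted p = 0.496) and RPA3 (log2 fold change 0.26, SE 0.123, unadjusted p = 0.0528, adjusted p = 0.531) had the lowest p.

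Among the other lists, 2 genes were called lower in SW480 after knockdown, CDK6 (log2 fold change -0.39, SE 0.092, adjusted p = 0.0488 by edgeR) and CCND1 (log2 fold change -0.32, SE 0.067, adjusted p = 0.0305), which encode a kinase and a cyclin that act in G1. Of all genes, 0.903% were called lower, and whether these 2 calls hold in other settings was not tested. None of the 31 further replication genes, 30 nucleotide genes or 24 genes of G2 and mitosis passed by edgeR in SW480 or DLD-1. At an unadjusted p under 0.05, 5, 9 and 2 of them were found in SW480 and 1, 3 and 0 in DLD-1. The shares of all genes were 19.3% in SW480 and 5.96% in DLD-1.

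The ratio between replicates moved with transcript length in 3 of the 4 groups. Among the 54 genes, the Spearman correlation between length and the log2 ratio of replicate 1 to replicate 2 was -0.53 in DLD-1 shControl, -0.03 in DLD-1 shNAT10, -0.46 in SW480 shControl and -0.39 in SW480 shNAT10, as a description over genes that share the same libraries. Over all genes with a mean of 10 CPM or more, it was -0.47, -0.15, -0.48 and -0.59 in the same order, so the trend was not particular to the 54 genes. In SW480 shNAT10 the ratios ran from -0.43 to 0.31 on the log2 scale. With a correction for length, chosen after the data were seen, MCM7 was called in SW480 (log2 fold change 0.20, adjusted p = 0.0396 by edgeR) and over both lines, and no other gene of the 54 was. The part of length in the other differences between replicates was not tested.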

How the data were processed

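Poly(A) RNA of 8 libraries, in 4 groups of 2 given by cell line and hairpin in the labels, had been read as single-end 50-base reads, and BGI processed the data. The submitters' processing notes name HISAT2 2.0.4, Bowtie2 2.2.5, RSEM 1.2.12 and hg38, without saying what each was used for. The authors deposited estimated counts (expected counts) per RefSeq transcript for 78953 transcripts, not normalized, and FPKM per transcript for each library. FPKM values of SW480 shNAT10 replicate 2 were incomplete, with 14655 transcripts (18.6%) missing.

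Counts were summed over the transcripts of each gene (17309 genes, 99.3% matched to a RefSeq symbol) and rounded to whole numbers. Genes passed filterByExpr (minimum count 10, minimum total count 15), which left 13619 with all 54 replication genes among them, and were normalized by TMM. A quasi-likelihood model of the 4 groups, with no term for the replicate number, was fitted across all 8 libraries (edgeR 4.0.16, R 4.3.3). Contrasts compared the lines within each hairpin, the hairpins within each line and over both, and the difference between lines. Standard errors were obtained as the size of the log2 fold change over the root of the F statistic, and intervals from the t distribution. Adjusted p-values are Benjamini-Hochberg over all tested genes, with a call under 0.05. Levels between genes were compared per length, by FPKM summed over transcripts.

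The members and lists were chosen with earlier results of these data known. Named genes are the 12 with the largest difference between lines in shControl cells, the 3 with the lowest p in each knockdown contrast, the highest per length of each role, and at most 4 called genes of each other list. Promoter matches were counted in Python 3.11.15 with pandas 2.3.3, and figures were drawn with matplotlib 3.10.9. Alternatives covered DESeq2 1.42.0, upper-quartile scaling, other filters, limma 3.58.1 on log2(FPKM + 1), replicate blocks, the study's limits, each line alone and each library left out, and a length correction (loess, span 0.5) added later.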

Additional observations from a re-analysis of the deposited data

Results flagged for a closer look

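NAT10 was flagged because its fall differed between the lines, by -1.16 on the log2 scale (SW480 minus DLD-1) in a test of the difference itself (adjusted p = 0.0015 by edgeR). PCNA and TYMS were flagged because both libraries of SW480 shNAT10 lay above those of SW480 shControl, while both libraries of DLD-1 shNAT10 lay below those of DLD-1 shControl. The share of all genes with this pattern was not counted, so the pattern has no background to be read against. The fitted differences were 0.16 for PCNA and 0.23 for TYMS on the log2 scale, and neither passed the test of the difference (adjusted p = 0.569 and 0.489 by edgeR). PCNA was at 429 and 429 CPM in DLD-1 shControl, 420.5 and 417 CPM in DLD-1 shNAT10, 273 and 257 CPM in SW480 shControl and 293 and 283 CPM in SW480 shNAT10.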

How the results depend on the processing

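For the difference between the lines in shControl cells, 41 of the 43 genes called lower stayed lower past the threshold in each of 16 settings with a call at an adjusted p under 0.05, the exceptions being E2F1 and MCM6, and in shNAT10 cells 40 of 44 did, the exceptions being CDC6, MCM6, PRIM1 and TYMS. Under the study's limits, which add a minimum fold to an unadjusted p, 40 were lower in either comparison. The median of the 54 genes in shControl cells was -0.66 with limma-trend on log2(FPKM + 1), which leaves out the library with incomplete values, against -0.72, and in shNAT10 cells it was -0.71 with upper-quartile normalization, against -0.75. For knockdown in SW480 the median was -0.0032 with limma-trend, against 0.037, and for the difference between the lines -0.046, against 0.023. With a replicate block, 6 genes were called higher and 1 lower in SW480, and 3 were higher over both lines, where 5.39% of all genes were higher and 6.76% lower in SW480 and 2.92% higher over both lines. The SW480 genes were MCM7, E2F1, GINS2, POLD2, TYMS and GMNN, higher, and MCM8, lower, and those over both lines were MCM7, GINS2 and MCM3. With the block within each cell line the numbers were 6, 1 and 2, beside 4.77%, 6.04% and 2.39% of all genes. The block called no gene in DLD-1 or in the difference, and 45 genes were lower in SW480 shControl with it, against 43, the further ones being POLD2 and MCM8 (adjusted p = 0.00686 and 0.0459 by edgeR). The block within each cell line ended the TYMS call in shNAT10 cells (log2 fold change -0.15, adjusted p = 0.0611). The correlation of replicate deviations between groups was -0.0007 to 0.41, and with 2 pairs the numbers do not show that samples were paired. DESeq2 and the length correction each called 1 gene higher in SW480 and 1 over both lines. The study's limits called 2 higher in SW480 and 1 in the difference. When each library was left out in turn, the shNAT10 line median ran from -0.78 to -0.68 and the SW480 knockdown median from 0.037 to 0.072, while genes called higher in shControl cells numbered 1 to 3. Knockdown calls then ran from 0 to 6 higher and 0 to 4 lower in SW480 and from 0 to 3 higher and 0 to 2 lower over both lines, with the upper ends without SW480 shNAT10 replicate 2. In DLD-1 and in the difference no gene of the 54 was called in any of these fits. The cause of these changes was not tested.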
